A study of Rattus norvegicus with 12 samples.

Results

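The genes described here are the neuropilins, A-type plexins and class 3 semaphorins measured in H9C2 cells, a rat line from embryonic heart. They are 10 genes chosen by name: Nrp1, Nrp2, Plxna1, Plxna2, Plxna3, Sema3a, Sema3b, Sema3c, Sema3d and Sema3e. The list was proposed with results from all 3 groups of libraries already known, and no threshold or single contrast defines it. Their levels and differences are therefore given as a description, with no p-value for any of them, and how many passed the test run over all genes is given only beside the share of all genes that did. After repeated rows were resolved, the deposited table gave 16002 gene IDs, and all 10 genes were among the 11398 that passed the low-count filter.

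RNA was sequenced from 12 cultures, 4 in each of 3 groups, all wild type, described by the labels as biological replicates of a single batch. Control cells stayed at normal oxygen and received no vector. H/R cells carried an empty lentiviral vector and were held at 1% oxygen for 8 h, then returned to normal oxygen for 2 h. H/R + LITAF cells carried a lentiviral vector for LITAF, an endosomal and lysosomal membrane protein, and went through the same oxygen schedule. Against control, the vector and the oxygen change therefore cannot be told apart, whereas the H/R and H/R + LITAF groups differ only by the LITAF insert. Neither a clone nor the promoter driving LITAF is given in the sources used here.

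Class 3 semaphorins are secreted proteins that steer growing axons and migrating cells, often by repulsion. Most of them bind a neuropilin, which has a short cytoplasmic tail and hands the signal to an A-type plexin, a transmembrane receptor that acts on small GTPases and the cytoskeleton. Sema3e is the exception, since it binds plexin D1 directly. Neuropilins also serve as co-receptors for vascular endothelial growth factors (VEGFs). In the heart the system is known for septation of the outflow tract, growth of vessels and the pattern of sympathetic innervation.

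Library totals, in units of 1000000 counts, were 19.2 to 20.7 in control, 16.9 to 18.1 in H/R and 17.2 to 18.4 in H/R + LITAF. Levels are CPM, a gene's counts out of 1000000 counts of its library, after TMM scaling, which adjusts each library's total for its composition. Litaf, the gene carried by the vector, stood at 473 ± 17.9 CPM in control (SD, n = 4), 585 ± 30.0 in H/R and 2338 ± 326 in H/R + LITAF. Of 11 cardiomyocyte markers, 8 were under 1 CPM in every library, among them Myh6, Myh7, Tnni3, Actn2 and Ryr2. Tnnt2, Gata4 and Nkx2-5 of the list were expressed, with means of 304, 33.0 and 6.84 CPM in control. Their means were 67.9, 17.3 and 16.5 CPM in H/R and 169, 16.0 and 17.1 CPM in H/R + LITAF. The cultures thus did not show the full marker set of mature heart muscle. Of 7 endothelial markers, Pecam1, Cdh5, Kdr, Tek and Tie1 were under 1 CPM in every library. Vwf reached 1.24 CPM in control library 3. Flt1 of the list was expressed, with means of 96.8 CPM in control, 38.8 CPM in H/R and 47.9 CPM in H/R + LITAF. Non-whole values made up 2.79% to 3.34% of the genes in each control library and 11.1% to 12.3% in each other library, so a difference in how the values were made cannot be told apart from a difference from control.

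Promoters are shown for 4 of the genes because they cover large differences in either direction, with and without a hypoxia-response core. The searched core was ACGTG or GCGTG on either strand, in the 250 bases before the start site, and capitals mark the matches. Sequences are from RefSeq on GRCr8 and are written 5′ to 3′ on the gene's own strand.
Nrp1, chr19:73256307-73256556, plus strand: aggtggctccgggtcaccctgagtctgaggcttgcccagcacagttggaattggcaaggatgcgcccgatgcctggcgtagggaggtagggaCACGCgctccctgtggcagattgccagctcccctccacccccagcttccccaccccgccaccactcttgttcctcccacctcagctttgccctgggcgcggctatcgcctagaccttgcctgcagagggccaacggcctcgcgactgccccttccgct
Plxna2, chr13:108691280-108691529, plus strand: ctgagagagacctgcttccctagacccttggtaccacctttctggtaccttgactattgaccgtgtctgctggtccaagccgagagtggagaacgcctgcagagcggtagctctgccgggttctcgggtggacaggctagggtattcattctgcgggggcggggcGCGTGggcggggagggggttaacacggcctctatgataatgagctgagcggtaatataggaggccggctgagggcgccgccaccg
Sema3d, chr4:23460972-23461221, minus strand: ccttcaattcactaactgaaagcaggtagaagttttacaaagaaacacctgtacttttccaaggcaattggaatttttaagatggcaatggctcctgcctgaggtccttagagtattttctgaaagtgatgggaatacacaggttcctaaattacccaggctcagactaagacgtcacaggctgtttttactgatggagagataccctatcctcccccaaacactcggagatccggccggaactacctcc
Sema3e, chr4:21510375-21510624, minus strand: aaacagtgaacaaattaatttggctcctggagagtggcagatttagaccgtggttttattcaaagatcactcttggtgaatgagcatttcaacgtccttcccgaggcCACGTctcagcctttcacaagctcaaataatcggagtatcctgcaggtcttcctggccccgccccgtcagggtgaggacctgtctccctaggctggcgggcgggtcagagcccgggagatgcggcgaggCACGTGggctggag
RefSeq entries were matched for 7 of the 10 genes, and none for Plxna1, Sema3a and Sema3b. Of the 7 windows, 4 (57.1%) held a match, those of Nrp1, Nrp2, Plxna2 and Sema3e, against 12284 of 33469 (36.7%) of all promoter windows of that length. Sema3e had 3 matches, 2 of which overlap as the palindrome 9 to 14 bases before the start. Nrp1 and Plxna2, which stood lower after H/R, and Sema3e, which stood higher, all held a match, and Sema3c and Sema3d, which stood on opposite sides of control, held none. Plxna3 held none either. A match is a description of the letters, not a binding site.

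Nrp1 was by far the largest difference among the neuropilins, while Nrp2 differed little between control and H/R. Nrp1 (ENSRNOG00000010744), the co-receptor for Sema3a and for VEGF-A, had 1314, 1633, 1615 and 1342 CPM in the 4 control libraries. The 4 H/R libraries had 71.9, 64.6, 73.3 and 75.2 CPM, and the 4 H/R + LITAF libraries 76.6, 50.7, 75.0 and 55.3 CPM. Every control library lay far above every other library, and the H/R and H/R + LITAF libraries overlapped. The fitted log2 fold change of H/R over control was −4.37 ± 0.15 (SE), which is 20.7-fold lower, and that of H/R + LITAF over H/R was −0.15 ± 0.13. In these bulk cultures, fewer cells that express a gene and less RNA per cell cannot be told apart.

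Nrp2 (ENSRNOG00000031232), which binds Sema3f and VEGF-C, had 156, 200, 86.4 and 205 CPM in control. It had 147, 149, 143 and 159 CPM in H/R and 247, 199, 195 and 216 CPM in H/R + LITAF. Control libraries spread widely, with library 3 the lowest of all 12, and the H/R libraries lay within that spread. The log2 fold change of H/R over control was −0.11 ± 0.19, and its sign turned positive without control library 2 or 4 and when library totals alone or the upper quartile set the scale. All 4 H/R + LITAF libraries lay above all H/R libraries, with a log2 fold change of 0.52 ± 0.19.

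The balance between the neuropilins therefore differed between groups. There were 8.42, 8.18, 18.7 and 6.53 Nrp1 reads per Nrp2 read in the control libraries, a mean of 10.5 ± 5.55 (SD, n = 4). The mean was 0.477 ± 0.0329 in H/R and 0.301 ± 0.0614 in H/R + LITAF. No library of one group overlapped another group in this ratio. Reads are not per length, so the ratio is read only across groups and does not say which neuropilin had more transcripts.

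**Figure D1:**
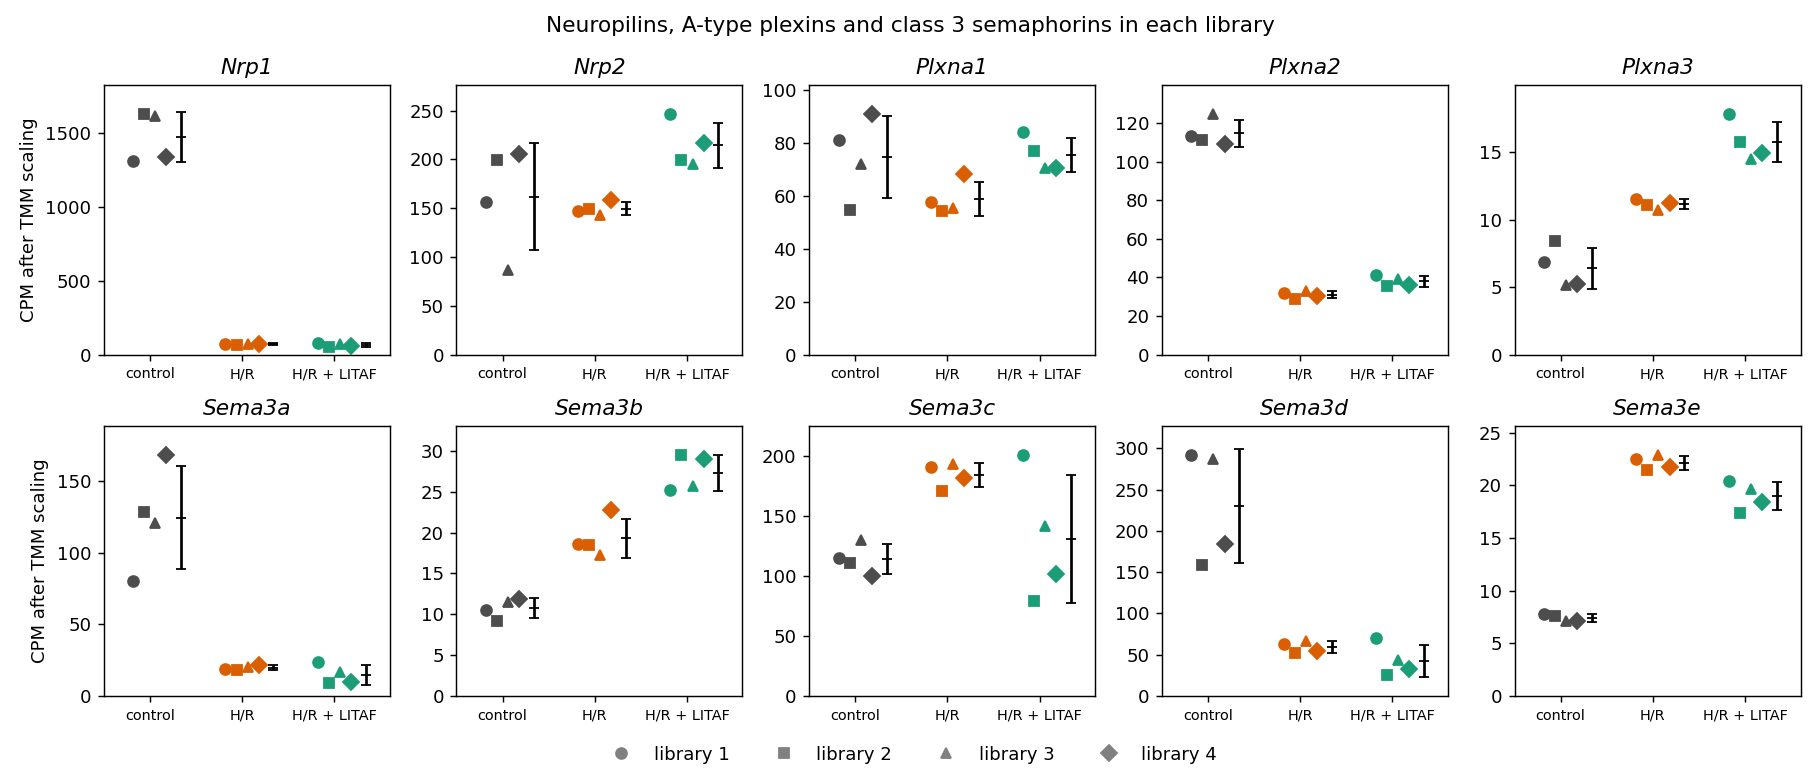
Level of each gene in each library, in CPM after TMM scaling (y axis, from 0, a separate scale for each gene), by group (x axis); marker shape gives the library number and bars the mean ± SD of 4 libraries. Nrp1 has means of 1476 CPM in control and 71.2 CPM in H/R, and Sema3e of 7.41 and 22.1 CPM.

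The 3 A-type plexins went different ways. Plxna2 (ENSRNOG00000007324), a signalling receptor used with either neuropilin, had 113, 111, 125 and 109 CPM in control. It had 32.0, 28.9, 33.0 and 30.6 CPM in H/R and 41.5, 35.4, 39.1 and 36.0 CPM in H/R + LITAF. The 3 groups did not overlap, and libraries within a group lay close together. H/R stood 3.69-fold below control, a log2 fold change of −1.88 ± 0.10, and H/R + LITAF stood above H/R by 0.29 ± 0.10 on the log2 scale.

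Plxna3 (ENSRNOG00000060464), which is known for relaying Sema3f signals with Nrp2, had 6.83, 8.39, 5.15 and 5.23 CPM in control. It had 11.6, 11.1, 10.7 and 11.3 CPM in H/R and 17.8, 15.8, 14.5 and 15.0 CPM in H/R + LITAF. The groups formed an ascending order with no overlap. The log2 fold change was 0.80 ± 0.15 for H/R over control and 0.50 ± 0.14 for H/R + LITAF over H/R.

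Plxna1 (ENSRNOG00000017003), a plexin that pairs with Nrp1 in the Sema3a receptor, had 81.1, 54.5, 71.9 and 91.0 CPM in control. It had 57.8, 54.2, 55.3 and 68.2 CPM in H/R and 84.0, 77.0, 70.5 and 70.4 CPM in H/R + LITAF. Control overlapped both other groups, and H/R + LITAF lay above H/R in every library. The log2 fold change was −0.34 ± 0.14 for H/R over control and 0.36 ± 0.14 for H/R + LITAF over H/R. Its order of means, H/R + LITAF at 75.4 ± 6.46, control at 74.6 ± 15.5 and H/R at 58.9 ± 6.37 CPM (SD, n = 4), has neighbours at the top that do not differ beyond their spread.

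Among the ligands, Sema3a and Sema3d stood lower after H/R and Sema3b, Sema3c and Sema3e stood higher. Sema3a (ENSRNOG00000023337), the founding member of the class and a repellent for sensory and sympathetic axons, had 80.6, 129, 121 and 168 CPM in control. It had 18.8, 18.2, 20.0 and 21.7 CPM in H/R and 23.8, 9.01, 16.5 and 9.67 CPM in H/R + LITAF. Control lay above every other library, and the H/R + LITAF libraries fell on both sides of H/R. H/R stood 6.32-fold below control, a log2 fold change of −2.66 ± 0.27. H/R + LITAF against H/R was −0.42 ± 0.26, and −0.73 without H/R + LITAF library 1.

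Sema3d (ENSRNOG00000007202), known for guiding endothelial and neural crest cells in the developing heart, had 292, 159, 288 and 184 CPM in control. It had 63.3, 51.8, 67.1 and 54.9 CPM in H/R and 69.6, 25.5, 42.9 and 32.8 CPM in H/R + LITAF. Libraries 1 and 3 were the higher pair in all 3 groups. H/R stood 3.89-fold below control, a log2 fold change of −1.96 ± 0.26. H/R + LITAF overlapped H/R through library 1, with a log2 fold change of −0.47 ± 0.26, and −0.80 without that library.

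Sema3c (ENSRNOG00000006526), a ligand of both neuropilins that the developing outflow tract needs, had 115, 111, 130 and 99.9 CPM in control. It had 191, 170, 193 and 182 CPM in H/R and 201, 79.0, 142 and 102 CPM in H/R + LITAF. All H/R libraries lay above all control libraries, while the H/R + LITAF libraries reached from below control to above H/R. The log2 fold change was 0.69 ± 0.20 for H/R over control. It was −0.49 ± 0.20 for H/R + LITAF over H/R, and −0.76 without H/R + LITAF library 1.

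Sema3e (ENSRNOG00000006631), the ligand of plexin D1, had 7.80, 7.61, 7.10 and 7.12 CPM in control. It had 22.5, 21.4, 22.9 and 21.8 CPM in H/R and 20.4, 17.4, 19.6 and 18.4 CPM in H/R + LITAF. The groups did not overlap, and H/R was the highest. H/R stood 2.99-fold above control, a log2 fold change of 1.58 ± 0.10, and H/R + LITAF over H/R was −0.22 ± 0.10.

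Sema3b (ENSRNOG00000016512), described as a tumour suppressor in lung cancer, had 10.5, 9.11, 11.5 and 11.9 CPM in control. It had 18.6, 18.5, 17.3 and 22.7 CPM in H/R and 25.2, 29.5, 25.7 and 29.0 CPM in H/R + LITAF. As for Plxna3, the groups ascended with no overlap. The log2 fold change was 0.84 ± 0.12 for H/R over control and 0.50 ± 0.12 for H/R + LITAF over H/R.

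**Figure D2:**
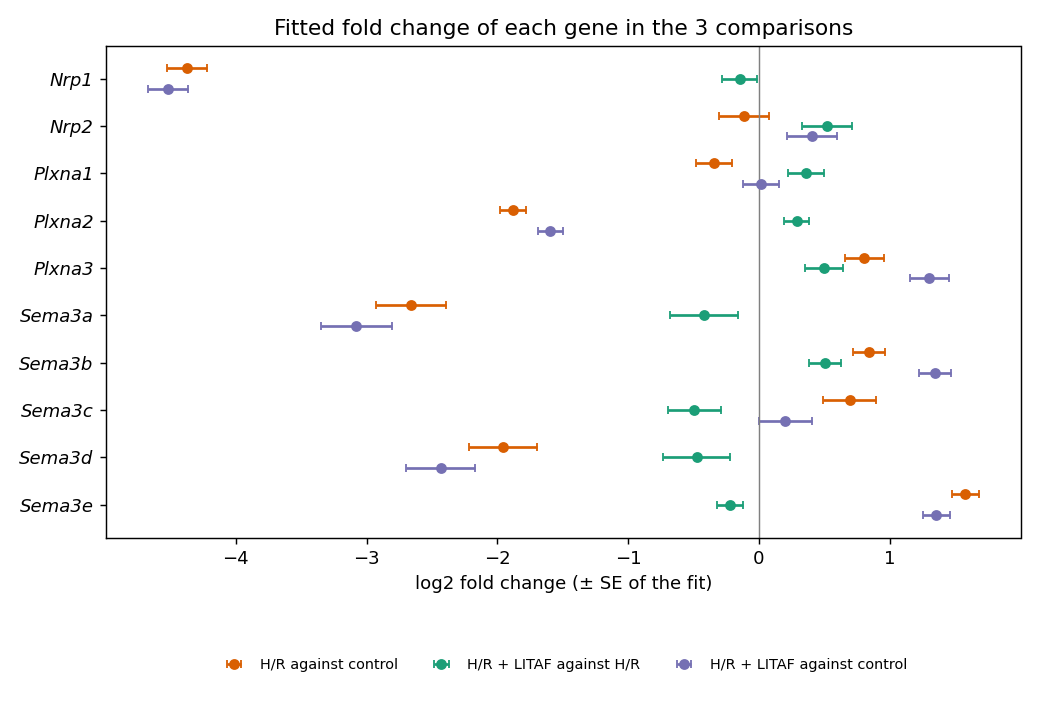
Fitted log2 fold change (x axis, ± SE) of each of the 10 genes (y axis) in the 3 comparisons, which share samples. Against control, Nrp1 lies farthest to the left at −4.37 and −4.52, and all fold changes of H/R + LITAF over H/R lie between −0.49 and 0.52.

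In H/R against control, 4 of the 10 genes passed an adjusted p of 0.05 on the higher side and 5 on the lower side, with edgeR's quasi-likelihood test over all 11398 genes. Of all genes tested, 31.8% passed on the higher side and 31.8% on the lower side. Libraries of the 2 groups did not overlap for 8 of the 10 genes, against 58.6% of all genes. Nothing is read from these counts, since this contrast was known when the genes were chosen. The median log2 fold change of the 10 was −0.23, against 0.01 for all genes. The call of Plxna1 was lost without control library 1, 3 or 4, H/R library 1, 2 or 3 or H/R + LITAF library 3 or 4, with values of −0.36 to −0.23, and Nrp2 passed on the lower side without control library 3, at −0.32 ± 0.11. Markers of other cell states moved in the same comparison: the summed level of 8 skeletal myoblast markers was 1626 to 5951 CPM in control and 114 to 133 CPM in H/R. Most of the control sum was Myog, with a mean of 3870 CPM in control and 14.1 CPM in H/R, while Des of the same list stood at 3.70 and 13.0 CPM. The summed level of 7 fibroblast markers was 60276 to 76149 CPM in control and 23594 to 26768 CPM in H/R. Nearly all of it was the collagen genes Col1a1, Col1a2 and Col3a1. Thy1 of the same list had means of 254 CPM in control and 224 CPM in H/R, with overlapping libraries. The summed level of 7 endothelial markers, nearly all of it Flt1, was 85.3 to 111 CPM in control and 37.6 to 41.1 CPM in H/R. Myf5, Myf6, Tnnt1 and Chrna1 of the myoblast list, and Pdgfra, Dcn and Lum of the fibroblast list, were under 1 CPM in every library of each group. Their part in the levels of the semaphorin genes was not tested.

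In H/R + LITAF against H/R, Sema3b alone among the 10 passed the test on the higher side, and 0 passed on the lower side. Of all genes tested, 3.73% passed on the higher side and 1.15% on the lower side. DESeq2 called 3 of the 10 higher and 0 lower, where its calls over all genes were 902, against 556 with edgeR. The call of Sema3b was lost without H/R library 1, 2 or 3 or H/R + LITAF library 2 or 4, its fold change staying between 0.45 and 0.61. Libraries did not overlap for 6 of the 10 genes, 5 on the higher side (Nrp2, Plxna1, Plxna2, Plxna3 and Sema3b) and 1 on the lower side (Sema3e), against 18.9% of all genes in either direction. The median log2 fold change was 0.07, against −0.01 for all genes. This contrast was also known when the genes were chosen, so nothing is read from the counts. When only the H/R and H/R + LITAF libraries were fitted, Nrp2, Plxna1, Plxna2 and Plxna3 passed as well. Calls over all genes went from 556 to 1098 in that fit. Without H/R + LITAF library 1, Sema3a, Sema3c and Sema3d passed on the lower side. Over all genes, those called lower then went from 131 to 593.

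In H/R + LITAF against control, which shares its samples with the other comparisons, Nrp1 stood at a log2 fold change of −4.52 ± 0.15, Sema3a at −3.08 ± 0.27, Sema3d at −2.43 ± 0.27 and Plxna2 at −1.59 ± 0.10. Sema3e stood at 1.35 ± 0.10, Sema3b at 1.35 ± 0.12 and Plxna3 at 1.30 ± 0.15. These 7 genes were those past the threshold, 3 higher and 4 lower, where 32% of all genes tested were higher and 32.6% lower. The same 7 were those whose libraries did not overlap, against 52.1% of all genes. Nrp2 was at 0.41 ± 0.19, Sema3c at 0.20 ± 0.20 and Plxna1 at 0.02 ± 0.14, and control and H/R + LITAF libraries overlapped for each of the 3. The last value of Sema3c turned to −0.06 without H/R + LITAF library 1.

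The summed level of the 7 class 3 semaphorin genes, Sema3a to Sema3g, was 694 ± 37.3 CPM in control, 394 ± 17.7 in H/R and 344 ± 66.5 in H/R + LITAF (SD, n = 4). The make-up of that sum differed as well. Sema3d took 33.0% ± 8.53 of these reads in control, 15.0% ± 1.30 in H/R and 12.0% ± 3.01 in H/R + LITAF. Sema3c took 16.4% ± 1.49, 46.7% ± 0.820 and 36.9% ± 8.09 in the same order. Sema3a took 18.0% ± 5.45, 5.00% ± 0.362 and 4.12% ± 1.16. Sema3f took 29.6% ± 5.04, 22.4% ± 1.38 and 32.3% ± 9.23, the H/R + LITAF libraries reaching from 21.3% to 42.1%. The shares of Sema3b and Sema3e were small in all groups, with Sema3b at 1.55% ± 0.126 in control, 4.90% ± 0.636 in H/R and 8.24% ± 2.06 in H/R + LITAF. These shares depend on transcript length and are read only across groups.

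**Figure D3:**
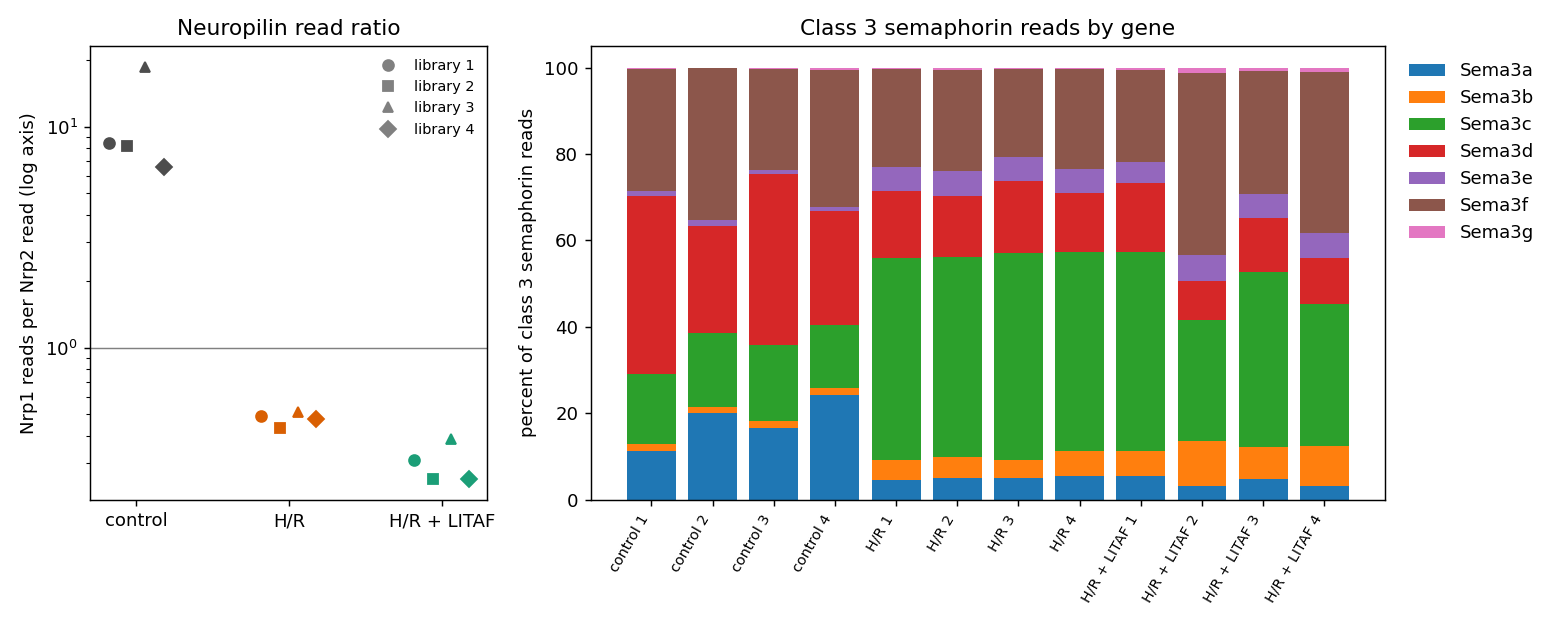
Left, Nrp1 reads per Nrp2 read in each library (log axis) by group, with a line at 1; right, share of each gene in the reads of the 7 class 3 semaphorin genes, in percent, for each library. The ratio is above 6 in every control library and below 1 in all others, and Sema3c takes 46.0% to 47.8% in the H/R libraries.

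The H/R + LITAF group was the least uniform for 3 of the ligands. On the log2 scale, Sema3a, Sema3c and Sema3d deviated from their group mean by 0.80, 0.71 and 0.81 in library 1. They deviated by −0.59, −0.64 and −0.64 in library 2, by 0.27, 0.21 and 0.11 in library 3, and by −0.49, −0.27 and −0.28 in library 4. All 3 genes thus kept the order of libraries 1, 3, 4 and 2. Nrp1 deviated in the same directions by smaller amounts, from −0.32 in library 2 to 0.27 in library 1. The same genes had SDs of 0.08 to 0.17 log2 in H/R, against 0.58 to 0.66 for the 3 ligands in H/R + LITAF. In control, Sema3a, Sema3c and Sema3d had SDs of 0.44, 0.16 and 0.45 log2, so Sema3a and Sema3d also spread widely there. Litaf itself followed that order, with 2691, 2532, 2120 and 2008 CPM in libraries 1, 3, 4 and 2. Sema3f went the other way, with 92.7, 99.5, 115 and 119 CPM. The summed level of the epithelial markers, nearly all Krt8 while Epcam and Cdh1 were under 1 CPM, was 39.9, 62.7, 75.4 and 76.0 CPM in the same order, and that of the fibroblast markers 27841, 31099, 34130 and 36326 CPM. The part of these in the levels of the ligands was not tested.

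**Figure D4:**
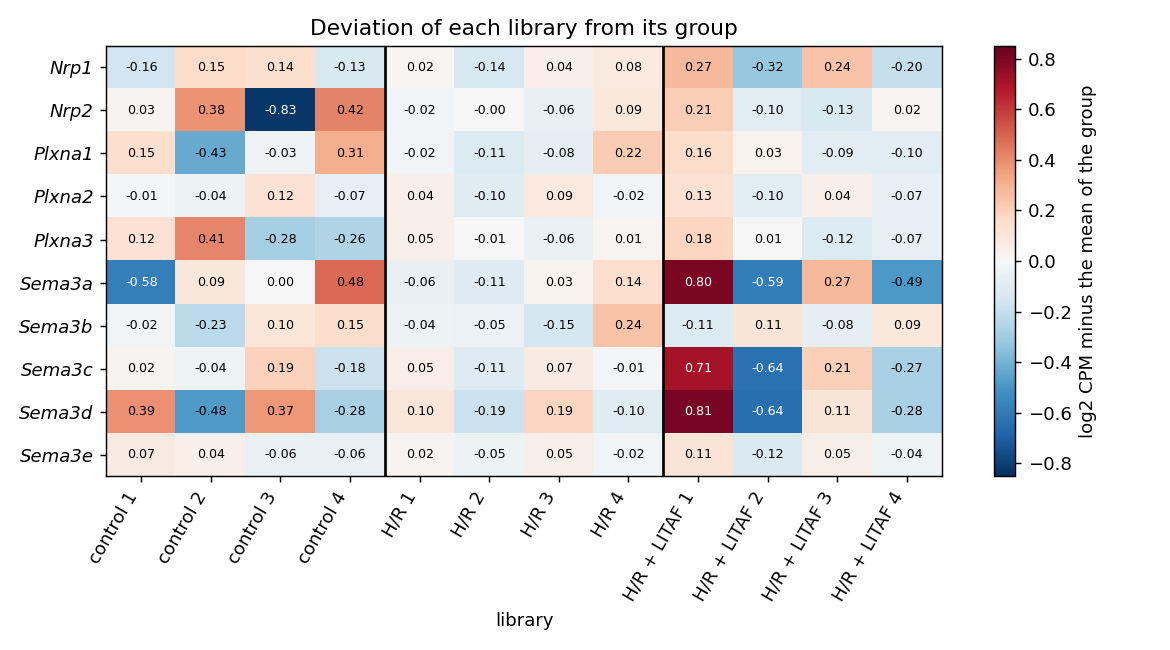
Deviation of each library (columns) from its group mean for each gene (rows), in log2 CPM; red is above and blue below the group mean. Sema3a, Sema3c and Sema3d run from 0.71 to 0.81 in H/R + LITAF library 1 to −0.59 to −0.64 in library 2, and Nrp2 is at −0.83 in control library 3.

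Over all 12 libraries, the genes whose log2 CPM followed each of the 10 most closely were listed by Pearson's r, as a description dominated by the distance between control and the other groups. Nrp1 was followed by Frmd4b and E2f8, at an r of 0.999 and 0.998. Plxna2 was followed by Gli2 and Adamts20 at 0.996, and Sema3e by Dnaaf2 at 0.996 and Gbe1 at 0.994. Sema3a was followed by Megf9 at 0.996 and Sgk3 at 0.992, Sema3d by Dse at 0.993 and Epb41l5 at 0.990, and Sema3b by Arid5a at 0.993 and Mapk8ip3 at 0.991. Sema3c was followed by Cwf19l2 at 0.980 and Yae1 at 0.979, and Plxna3 by Brd1 at 0.979 and Lonrf1 at 0.976. The genes with less distance between groups had weaker partners, Nrp2 with Clic4 at 0.945 and Fbln5 at 0.912, and Plxna1 with Lrp1 at 0.945 and Pkd1 at 0.923.

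The other genes of the pathway were taken from 7 lists holding 70 genes, of which 53 were tested. These lists were also chosen with earlier results of these data known. Their counts and p-values therefore describe these libraries only, and nothing is read from how many genes of a list passed. Genes said to be named after their values were seen are additions to the naming by smallest p, not the only ones chosen with results known. In H/R against control, 12 rose, 19 fell and 22 did not pass the test, with a median log2 fold change of −0.22. Among all genes tested, 31.8% passed on the higher side and 31.8% on the lower side, with a median of 0.01. These shares, and those of the other comparisons, are the background for the counts of each list below. All p-values below are adjusted over all genes tested, from edgeR's quasi-likelihood test. Between H/R + LITAF and H/R, 3 rose, 0 fell and 50 did not pass, with a median of 0.14. Over all genes, 3.73% were higher and 1.15% lower in that comparison. DESeq2 called 5 pathway genes higher and 0 lower there, where its calls over all genes were 902, against 556 with edgeR. Between H/R + LITAF and control, 16 rose, 23 fell and 14 did not pass, with a median of −0.10. Over all genes, 32% were higher and 32.6% lower in that comparison.

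Of the family genes outside the 10, Sema3f fell and Sema3g did not pass, while Plxna4 was at 0 in 9 of 12 libraries and was not tested. Sema3f, the main ligand of Nrp2, had 200, 226, 171 and 220 CPM in control and 92.5, 86.2, 82.1 and 91.2 CPM in H/R. Its log2 fold change was −1.22 ± 0.11 (adjusted p = 1.16e-07), and 0.28 ± 0.11 for H/R + LITAF over H/R (adjusted p = 0.178). Among 6 other semaphorins tested, 2 fell and 4 did not pass in H/R against control. Sema6c, a transmembrane semaphorin, had 62.0, 54.2, 53.5 and 31.8 CPM in control and 6.02, 5.08, 5.55 and 4.10 CPM in H/R, a log2 fold change of −3.28 ± 0.19 (adjusted p = 3.18e-10). With LITAF it had 9.27, 9.45, 9.25 and 9.50 CPM, above every H/R library, and it rose over H/R by 0.85 ± 0.19 on the log2 scale (adjusted p = 0.0144). Sema4g fell with a log2 fold change of −1.26 ± 0.20 in H/R against control (adjusted p = 3.57e-05). Against control, H/R + LITAF had 1 of the 6 higher, Sema4c at 0.34 ± 0.13 (adjusted p = 0.0266; lost without control library 1 or 2 or H/R + LITAF library 2), and 2 lower, Sema6c at −2.43 ± 0.18 and Sema4g at −0.67 ± 0.19 (adjusted p = 5.24e-09 and 0.00584).

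Of 4 other plexins tested, 3 fell in H/R against control and none rose. Plxnd1, the receptor of Sema3e, had 9.58, 8.73, 13.4 and 9.92 CPM in control and 3.46, 3.71, 4.53 and 4.60 CPM in H/R. Its log2 fold change was −1.35 ± 0.17 (adjusted p = 3.01e-06), in the opposite direction to its ligand. Plxnb1, a receptor of Sema4d, fell with −0.74 ± 0.14 (adjusted p = 0.000256) and Plxnb2 with −0.61 ± 0.11 (adjusted p = 0.000133). With LITAF all 4 fell against control, among them Plxnc1 at −0.83 ± 0.22 (adjusted p = 0.00303). None of the 4 passed in H/R + LITAF against H/R with edgeR.

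All 6 tested VEGF ligands and receptors passed the test in H/R against control, 4 higher and 2 lower. Over all genes tested, 31.8% passed on each side there, and this list was chosen with earlier results known. Vegfa, a classic target of hypoxia signalling and a ligand that Nrp1 binds, had 136, 155, 109 and 146 CPM in control and 877, 919, 869 and 932 CPM in H/R. It rose 6.58-fold, a log2 fold change of 2.72 ± 0.11 (adjusted p = 1.07e-11), while in the same libraries Nrp1 stood 20.7-fold lower. With LITAF it had 904, 814, 891 and 964 CPM and did not pass against H/R, at −0.01 ± 0.11 (adjusted p = 0.968). Vegfb rose with 1.20 ± 0.14 (adjusted p = 1.83e-06), and Vegfc and Pgf, named after their values were seen, rose with 0.57 ± 0.12 and 1.92 ± 0.37 (adjusted p = 0.000456 and 0.000288). Flt1, the decoy-like VEGF receptor, fell with −1.32 ± 0.10 (adjusted p = 1.25e-08), and Vegfd with −2.56 ± 0.44 (adjusted p = 7.97e-05). Kdr, the main signalling VEGF receptor, was at 0 in all but 1 of the 12 libraries and was not tested. The same 6 genes passed in the same directions between H/R + LITAF and control, though Vegfc did not without control library 4 or H/R + LITAF library 1, 3 or 4, and none passed against H/R.

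Of the 5 tested co-receptors and adaptors, 3 fell in H/R against control and none rose. They were Itga1 at −1.40 ± 0.20, Met at −0.65 ± 0.13 and Itgb1 at −0.39 ± 0.09 on the log2 scale (adjusted p = 1.34e-05, 0.000478 and 0.00117). Itga1 and Itgb1 form an integrin and Met is a receptor kinase that associates with B-type plexins. Between H/R + LITAF and control these 3 and Gipc1 fell, the last at −0.32 ± 0.13 (adjusted p = 0.0368, lost in 13 of 20 alternatives), and L1cam, an adhesion partner of Nrp1, rose with 2.63 ± 0.57 (adjusted p = 0.000729) from 0.157 to 1.02 CPM. None passed in H/R + LITAF against H/R.

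Of 26 cytoplasmic signalling genes tested, 8 rose, 4 fell and 14 did not pass in H/R against control. Rras, a GTPase that plexins switch off, rose with 1.59 ± 0.13 (adjusted p = 3.22e-08). Fyn, a kinase that phosphorylates plexins and their effectors, rose with 1.21 ± 0.11 (adjusted p = 9.26e-08), and Rnd1, a small GTPase that binds plexins, with 0.92 ± 0.09 (adjusted p = 3.29e-07). Dpysl2, also called CRMP2, a microtubule regulator downstream of Sema3a, fell with −0.88 ± 0.11 (adjusted p = 2.17e-06). Between H/R and H/R + LITAF, Mical3, an oxidase of the family that takes apart actin below plexins, had 23.0, 18.0, 18.2 and 19.6 CPM in H/R and 30.8, 28.2, 29.4 and 28.3 CPM in H/R + LITAF. It rose by 0.57 ± 0.14 on the log2 scale (adjusted p = 0.0238), a call lost without H/R library 2, 3 or 4 or H/R + LITAF library 3 or 4 (adjusted p of 0.0550 to 0.0950). Of the 26 genes, 10 rose, 6 fell and 10 did not pass between H/R + LITAF and control. Of the 10, Mical1 was lost in 12 of 20 alternatives, Cdk5 in 7 and Ssh1 in 2, 3 genes named after their values were seen. Rras, Fyn and Rnd1 rose there with 1.86 ± 0.13, 1.46 ± 0.11 and 0.93 ± 0.09, and Dpysl3, a relative of Dpysl2, fell with −0.94 ± 0.11 (adjusted p = 1.54e-06).

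All 4 tested proteases of secreted semaphorins fell in H/R against control, where 31.8% of all genes tested fell. Their list, too, was chosen with earlier results known. Adamts1, a secreted metalloprotease known to cut Sema3c, had 1168, 951, 957 and 985 CPM in control and 194, 190, 180 and 197 CPM in H/R, a log2 fold change of −2.42 ± 0.10 (adjusted p = 5.94e-12). With LITAF it had 326, 331, 329 and 358 CPM and rose over H/R by 0.82 ± 0.09 on the log2 scale (adjusted p = 4.41e-05). H/R + LITAF thus lay between H/R and control, with no overlap between groups, and still 3.02-fold below control. Pcsk6 fell with −1.46 ± 0.10, Furin with −0.54 ± 0.15 and Pcsk7 with −0.35 ± 0.11 in H/R against control (adjusted p = 1.61e-09, 0.00365 and 0.0124). These 3 are proprotein convertases, the enzyme class that cleaves class 3 semaphorins. Pcsk7 did not pass when library totals or the upper quartile set the scale.

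With the replicate number as a block, 3 further genes passed in H/R against control. They were Sema4a at −0.77 ± 0.31, L1cam at 1.53 ± 0.48 and Dpysl5 at −0.44 ± 0.18 (adjusted p = 0.0384, 0.0119 and 0.0398), which makes 13 higher and 21 lower of the 53.

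**Figure D5:**
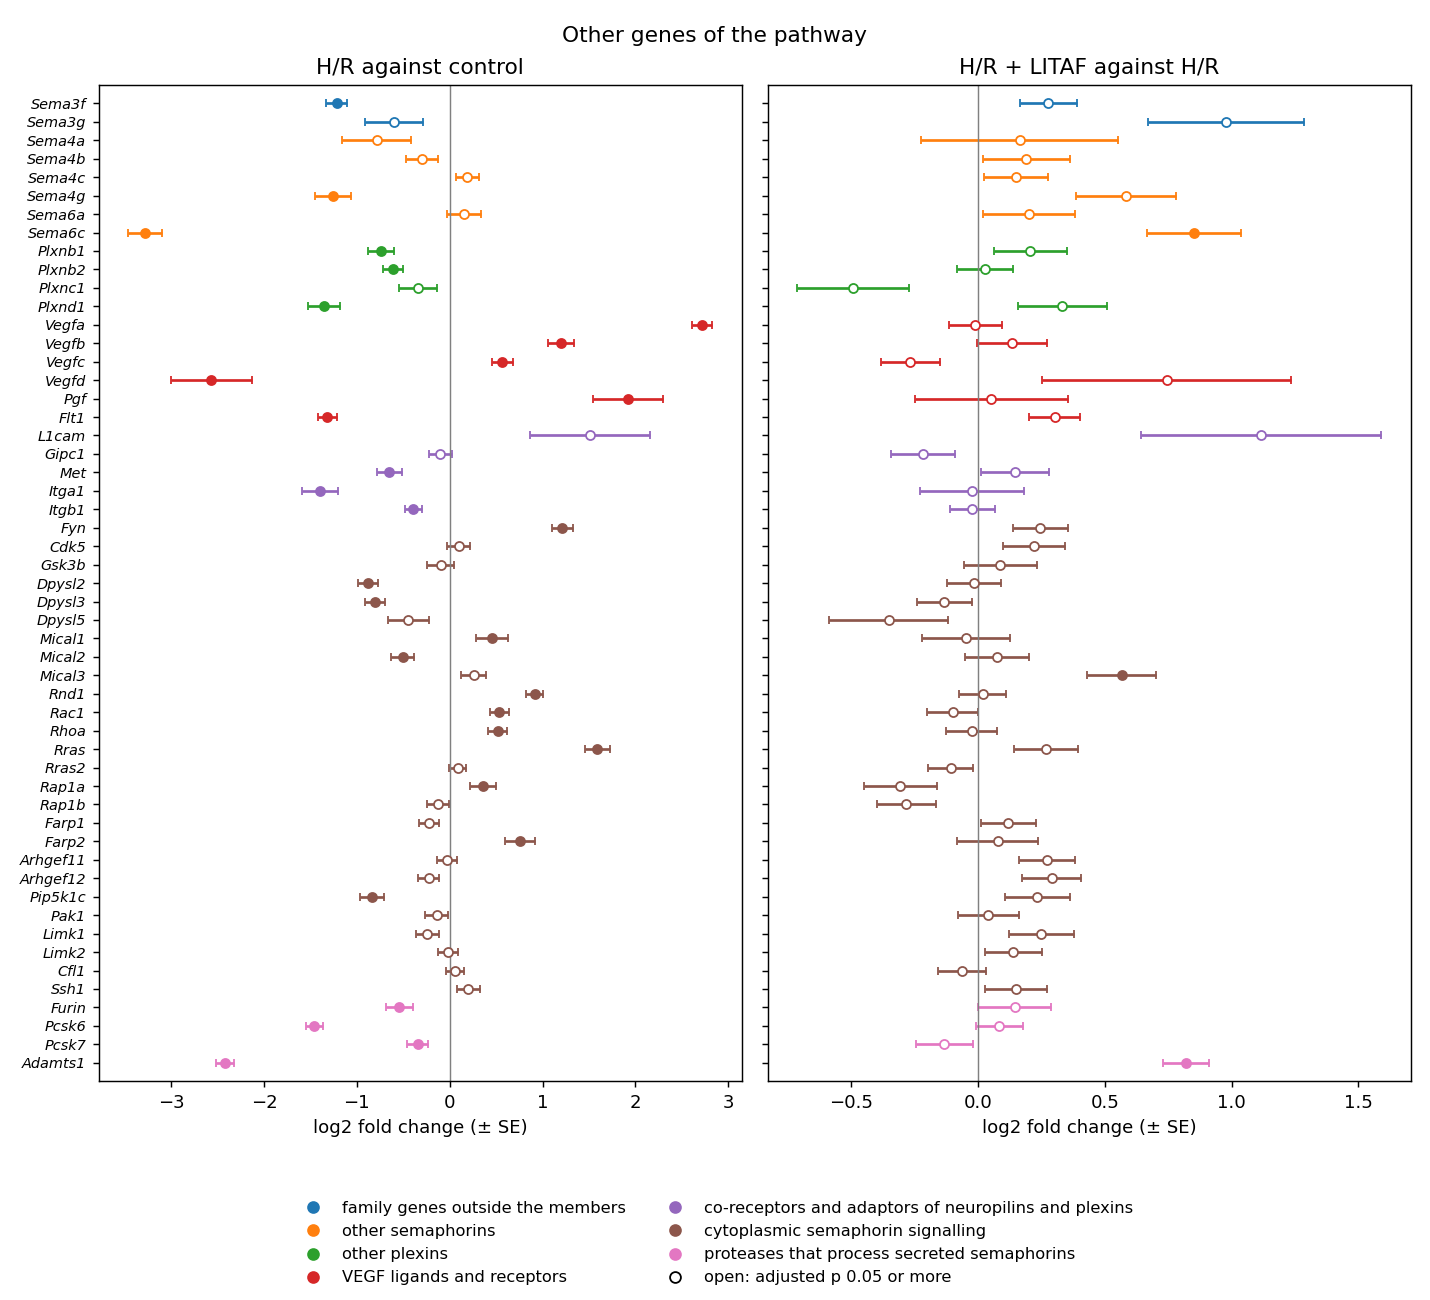
Log2 fold change (x axis, ± SE; the panels have different scales) of the 53 tested pathway genes (y axis, coloured by list) in H/R against control and H/R + LITAF against H/R; filled points passed an adjusted p of 0.05. On the left 12 genes are filled to the right of 0 and 19 to the left, and on the right only Sema6c, Mical3 and Adamts1 are filled.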

How the data were processed

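Polyadenylated RNA of 12 cultures was sequenced. The authors deposited a table of estimated counts per gene, not normalized, judged as such because some values are not whole. Their aligner, counting tool, strand setting and genome build are not stated in the labels. The submitters' processing notes name DESeq2 and edgeR. Overlapping and antisense genes may share reads.

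The table had 16204 gene rows; gene IDs that occurred more than once covered 258 rows, and 72 of these IDs, whose rows differed, were left out, none of a gene named here; identical rows were kept once. Counts were rounded to whole numbers. Genes were filtered with edgeR's filterByExpr by group, libraries were scaled with TMM, and 1 mean per group was fitted to all 12 libraries with edgeR 4.0.16 (R 4.3.3, limma 3.58.1). Quasi-likelihood p-values received a Benjamini-Hochberg adjustment across 11398 genes, with a threshold of 0.05; a result past it is called higher or lower. The common biological coefficient of variation was 14.5%. The script was tested on simulated data in which far fewer genes differed than in the comparisons with control. That test therefore does not cover the scaling or the calls of those comparisons.

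The 10 genes and the lists were chosen with earlier results of these data known. Named were all 10 genes, up to 4 genes called per list and comparison by smallest p, and the 2 genes most alike each of the 10 by r of log2 CPM (prior count 2; mean of at least 2). Sema5a, Sema5b, Flt4, Crmp1 and Dpysl4 were not analysed here. Marker lists not described in the report gave summed levels of 13.1 to 21.8 CPM in control and 8.79 to 11.8 CPM elsewhere for macrophage genes, and of 7.09 to 13.2 and 6.12 to 9.95 CPM for neuron and glia genes.

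Same-numbered control and H/R libraries deviated together from their group means, with correlations of 0.30 to 0.57, against -0.27 to -0.03 for other pairs. The labels do not say what a number shares. The main fit did not pair the libraries, and the replicate number entered only as a block in an alternative fit. For H/R + LITAF the same-number correlations were 0.05 to 0.20 with H/R and 0.05 to 0.10 with control. Other pairs reached from -0.27 to 0.23 with H/R and from -0.17 to 0.15 with control. Alternatives were other scalings, no filter, DESeq2 1.42.0, only the 2 groups compared, a replicate block, a threshold of 0.01 and leaving out each library.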

Additional observations from a re-analysis of the deposited data

How the results depend on the processing

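Of 570 alternative values for the fold changes of the 10 genes, 563 stayed within 1 SD between libraries, and 0 of the called ones changed sign. Leaving out 1 of 4 libraries moves a group mean by less than that SD, so the measure cannot judge those alternatives. Among uncalled values, Nrp2 changed sign in 4 alternatives in H/R against control. Plxna1 did so in 3 and Sema3c in 1 in H/R + LITAF against control. The 7 values beyond 1 SD were Plxna2 and Sema3e against control, with the upper quartile or library totals as the scale. These scales moved the median of all genes in H/R against control from 0.01 to 0.12 and 0.13, and the share of calls that were higher from 49.9% to 58.1% and 59.0%. In H/R + LITAF against H/R that share was 76.4%, then 66.5% and 61.0%. The 556 calls over all genes in H/R + LITAF against H/R became 902 with DESeq2, 1098 with only the 2 groups compared, 873 with the replicate block and 182 at a threshold of 0.01. Leaving out 1 library gave 244 (without H/R library 3) to 1285 (without H/R + LITAF library 1). The 3 pathway genes called higher there became 5 with DESeq2, 7 with only the 2 groups compared and 1 at a threshold of 0.01, and 2 to 4 with a library left out. The 0 called lower became 0 to 1 with a library left out, the 1 being Rap1a at -0.43 ± 0.13 (edgeR adjusted p = 0.0455) without H/R + LITAF library 1. The cause was not tested. With the replicate block, H/R against control had 7564 calls and H/R + LITAF against control 7672, against 7248 and 7366 without it. Among the 10 genes, the block added Plxna3 on the higher and Sema3d on the lower side in H/R + LITAF against H/R and Nrp2 on the higher side against control. In H/R against control, the call of Plxna1 was lost in several alternatives, and Nrp2 passed on the lower side without control library 3. Mical1 and Rap1a were each lost there in 5 of 20. Having 4 libraries a group and the counts of about 1 CPM for genes such as L1cam and Pgf limits the precision.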
